A study of Saccharomyces cerevisiae with 12 samples.

Results

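Loss of CHO2 alone was described from 4 of the 12 RNA-seq libraries of a yeast series, 2 of the cho2 mutant and 2 of the wild type (WT). Every gene with at least 1 FPKM (fragments per kilobase of gene length, scaled to library size) in at least 2 of the 12 libraries was tested, with CHO2 itself left out, which gave 6582 of the 7126 genes in the deposited table. The cells were Saccharomyces cerevisiae of the CEN.PK background, grown to log phase in YPL medium, washed in SL medium and collected after 1 h of culture in SL. The other libraries, 2 per genotype, came from set2, opi1, cho2set2 and opi1set2 cells of that background and treatment, so all 6 genotypes share the medium switch and no library shows cells before it. The labels give each mutant by its genotype alone. Whether replicates are separate cultures or clones is not stated, so p-values here measure no more than the spread between these samples.

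Cho2 adds the first methyl group to phosphatidylethanolamine on its way to phosphatidylcholine, and Opi3 adds the rest. Each methyl group comes from S-adenosylmethionine (SAM), which is made from methionine, and the S-adenosylhomocysteine left over returns to homocysteine, methionine or cysteine. In yeast the sulfur genes of these routes are activated by Met4, which reaches DNA through Cbf1 or through Met31 and Met32 and is held back by the ubiquitin ligase subunit Met30. Phospholipid genes carry an inositol-sensitive element bound by the activators Ino2 and Ino4 and are repressed through Opi1.

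Library totals lay between 7383001 and 9461609 counts, with 6508 to 6570 genes detected. Levels are given as CPM, counts-per-million scaled by TMM factors. Where a gene had no count, 3 counts set its limit, worth 0.317 to 0.406 CPM before TMM scaling and covering counting error only. The check of the deletion was CHO2 itself (YGR157W, chromosome VII, 802440 to 805049), for which WT gave 3305 and 3320 counts and cho2 gave 10 and 13, so its mRNA was near absent in both mutant libraries. OPI1 counts numbered 980 and 1227 in WT, and the cho2 libraries held 1204 and 1031. Where a SET2 deletion should leave none, 50 SET2 counts were found in the library labelled cho2set2 replicate 1. Results of cho2set2 against set2 are therefore also given without it. In cho2 against WT it is in neither group, and enters through the filter on FPKM, the TMM scaling and the shared estimate of spread. Without it in the fit 4 of the 112 calls were lost, FAA4, ADD37, ATP20 and TOS6, while other genes gained a call.

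CHO2 loss lowered many more genes than it raised. In cho2 96 genes were lower (1.46% of those tested) and 16 higher (0.243%), together 112 of 6582 (1.7%) with an adjusted p below 0.05 in edgeR's quasi-likelihood test. By at least 2-fold, 61 were lower and 5 higher (1% of those tested). The median log2 change of all genes tested was 0.002 and the median absolute change 0.161, against a smallest change of 0.545 among the 112. In all 112 the WT and cho2 libraries did not overlap. That was also so in 2910 of all 6582 genes tested (44.2%), so such a gap is common by itself. Of 57 tested genes in 6 lists of sulfur metabolism, 35 fell and 0 rose, and 61 other genes fell. The 57 genes took 4.05% and 4.69% of all counts in the WT libraries and 1.52% and 1.14% in the cho2 libraries. Both cho2 libraries thus stood below both WT libraries. The number of calls was 64 without cho2 replicate 2 and between 81 and 114 without any 1 of the other libraries of the pair, and 183 by DESeq2. Higher genes made up 14.3% of the calls, 30.7% without WT replicate 1 and 30.6% by DESeq2.

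**Figure D1:**
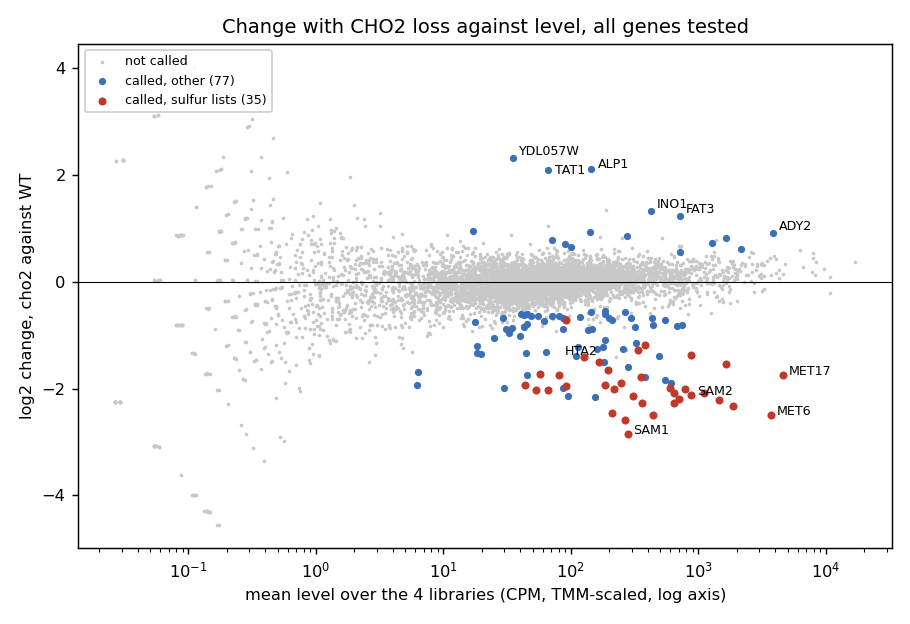
Log2 change of cho2 against WT (vertical axis) against the mean level over the 4 libraries (CPM, log axis) for the genes tested, with the 35 called members of the sulfur lists in red and the other 77 called genes in blue. Called genes of the sulfur lists all lie below 0, from SAM1 at -2.85 upward, and include some of the most abundant transcripts such as MET17 and MET6.

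Short promoter stretches show the motifs that many of these genes have in common. They were chosen among the named genes because they hold such motifs, and SAM1, the largest fall, holds none of them. The first 4 stretches below belong to sulfur genes, the fifth to RAD59, the fall of a recombination gene outside the lists, and the last to INO1, the rise among inositol genes. They are read from the RefSeq reference genome, build R64, and not from CEN.PK, on the strand of each gene. Capitals mark CACGTG, the core of the Cbf1 site, CTGTGGC, the core of the Met31 and Met32 site (GCCACAG on the other strand), and CATGTGA, the core of the Ino2 and Ino4 site (TCACATG on the other strand). MET3, the ATP sulfurylase, is shown at chrX:455847-456006 (+ strand), MET16, the reductase of activated sulfate, at chrXVI:877790-877825 (- strand), and CYS3, the cystathionine gamma-lyase, at chrI:130568-130603 (+ strand). SAM2, a SAM synthetase, is shown at chrIV:1454740-1454857, RAD59 at chrIV:345015-345166 and INO1 at chrX:136091-136191, all on the - strand. In SAM2 the run TCACATGTGA holds CATGTGA on both strands, overlapping.
MET3: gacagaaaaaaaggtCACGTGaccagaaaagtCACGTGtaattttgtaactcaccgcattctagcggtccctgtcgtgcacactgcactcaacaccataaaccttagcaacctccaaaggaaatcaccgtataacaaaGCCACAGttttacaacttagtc
MET16: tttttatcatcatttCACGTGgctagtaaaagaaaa
CYS3: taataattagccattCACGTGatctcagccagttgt
SAM2: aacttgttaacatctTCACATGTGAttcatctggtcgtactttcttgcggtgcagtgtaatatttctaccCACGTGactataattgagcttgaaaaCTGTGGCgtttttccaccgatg
RAD59: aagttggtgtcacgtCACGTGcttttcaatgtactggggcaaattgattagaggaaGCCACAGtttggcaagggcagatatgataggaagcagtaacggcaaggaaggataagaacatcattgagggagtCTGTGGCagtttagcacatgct
INO1: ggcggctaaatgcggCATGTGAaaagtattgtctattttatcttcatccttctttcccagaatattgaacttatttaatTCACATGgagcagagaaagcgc

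Searching both strands of the 500 bases before each start, CACGTG was present in 20 of the 35 sulfur genes that fell (57.1%) and in 362 of all 5796 genes with such a window (6.25%). CTGTGGC was present in 19 of the 35 (54.3%) and in 215 of all genes (3.71%). One or the other stood before 31 of the 35 (88.6%), before 8 of the 22 sulfur genes that were not called (36.4%), and before 554 of all genes (9.56%). The 4 falls of the sulfur lists with neither were SAM1, YCT1, SUL1 and SAM3. Outside the sulfur lists, 20 of 57 falls with a window held either motif (35.1%) and 1 of 16 rises (6.25%). These counts are not of separate sites, because a site between neighbouring genes was counted for each of them. Such shared sites lie between GTO1 and CYS4, CHL4 and MET32, IES5 and MET6, and MHT1 and MMP1. CATGTGA stood before 3 of the 35 (SAM2, MET17 and SAM3), before 3 of 16 rises (INO1, CDS1 and ADY2; 18.8%) and before 219 of all genes (3.78%). TGACTC, the core of the site of Gcn4, the activator of amino acid synthesis genes, stood before 11 of the 35 sulfur falls (31.4%), 18 of 57 other falls (31.6%), 5 of 22 sulfur genes not called (22.7%), 1 of 16 rises (6.25%) and 750 of all genes (12.9%). The sulfur lists cover routes that Met4 activates, and were chosen with earlier results of these data known. Their high share of such motifs is therefore no independent evidence. A match describes letters in this window and no binding was measured here.

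Sulfate uptake and reduction was the list that fell most completely. All 10 tested genes fell, with log2 changes from -2.46 to -1.54 and a median of -2.11. MET3, whose promoter is printed above, stood at 2496 and 3675 CPM in WT and at 721 and 516 in cho2. Both cho2 libraries were far below both WT libraries, a log2 change of -2.32 ± 0.32 (SE; adjusted p = 0.000649). MET14, the kinase that makes activated sulfate, went from 1044 and 1081 CPM to 296 and 142 (-2.28 ± 0.34), and MET16, which reduces it, from 489 and 511 CPM to 154 and 73.4 (-2.13 ± 0.33). The sulfite reductase subunits moved alike, MET5 with a log2 change of -2.08 ± 0.29 and MET10 of -2.21 ± 0.27. So did MET1 (-2.46 ± 0.36) and MET8 (-2.02 ± 0.28), which make siroheme, the cofactor of that enzyme. MET22, a phosphatase that clears a by-product of sulfate reduction, fell by 1.79 ± 0.22 on the log2 scale. Of the sulfate permeases SUL1 went from 2150 and 2758 CPM to 940 and 745 (-1.54 ± 0.23), and SUL2 from 114 and 133 CPM to 51.4 and 21.9 (-1.74 ± 0.33). SUL2 no longer passed without cho2 replicate 2 (-1.27) or without WT replicate 2 (-1.63). Without cho2 replicate 1 the falls were larger, -3.24 for MET1, -2.92 for MET14, -2.78 for MET16 and -2.51 for SUL2.

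In methionine synthesis 3 of 9 genes fell, or 5 without WT replicate 2 and 5 by DESeq2. MET6, the methionine synthase, stood at 5617 and 6941 CPM in WT and at 1345 and 883 in cho2. Its cho2 level was below the WT level in both libraries (-2.50 ± 0.28, adjusted p = 0.00017). MET17, which joins sulfide to acetylhomoserine and was the most abundant of the 57 transcripts per length in WT (mean FPKM 5382), went from 6487 and 7797 CPM to 2535 and 1736 (-1.74 ± 0.23, adjusted p = 0.000449); MET17 overlaps YLR302C. MET6 and MET17 together took 1.24% and 1.46% of all counts in WT and 0.387% and 0.248% in cho2. MET2, which makes acetylhomoserine and overlaps YNL276C, changed by -1.90 ± 0.34 and did not pass without cho2 replicate 2 (-1.53). Upstream, HOM3, the aspartate kinase, had a log2 change of -1.41 ± 0.34 (adjusted p = 0.055) and MET13, the methylenetetrahydrofolate reductase, of -1.27 ± 0.38 (adjusted p = 0.147), and neither passed. The list's median was -1.27.

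The SAM cycle split into genes that fell and genes that did not. SAM1 (YLR180W, chromosome XII, 515262 to 516410) and SAM2 (YDR502C, chromosome IV, 1453310 to 1454464) both encode SAM synthetase. SAM1 stood at 498 and 480 CPM in WT and at 79.4 and 56.4 in cho2, the largest fall of the 112 genes in fold (7.19-fold, log2 change -2.85 ± 0.30, adjusted p = 9.59e-05). SAM2 stood at 1307 and 1541 CPM in WT and at 409 and 243 in cho2 (-2.13 ± 0.28, adjusted p = 0.000457). The 4 libraries separated by genotype for both genes, as they did for all 112 called genes. Their coding sequences are 83.0% identical with a longest identical run of 59 bases, so how reads were shared between them is uncertain. MHT1, which remethylates homocysteine with S-methylmethionine, also fell (-1.96 ± 0.25). SAH1, which hydrolyses S-adenosylhomocysteine, went from 292 and 271 CPM to 193 and 159, a log2 change of -0.68 ± 0.16 that did not pass (adjusted p = 0.0524). ADO1, the adenosine kinase that clears the other product, stood at -0.07 ± 0.13, and SAM4 and SPE2 did not pass either.

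In transsulfuration and glutathione metabolism 7 of 14 genes fell, with a list median of -0.48. Both lyases that open cystathionine fell, STR3 (555 and 350 CPM to 98.3 and 52.9, -2.58 ± 0.33) and CYS3 (648 and 846 CPM to 153 and 112, -2.50 ± 0.29). CYS4, which makes cystathionine from homocysteine and serine, fell as well (-1.38 ± 0.19). STR2, which makes it from cysteine, kept 134 and 121 CPM in WT against 132 and 124 in cho2, a log2 change of 0.01 ± 0.13 (adjusted p = 0.995). GSH1, the committed enzyme of glutathione synthesis, stood at -1.28 ± 0.24 and GSH2, the enzyme after it, at 0.05 ± 0.11 (adjusted p = 0.919). GRX8, a glutaredoxin, changed by -1.998 ± 0.174. The glutathione-degrading genes DUG3 and DUG2 changed by -1.64 ± 0.23 and -0.71 ± 0.16, while DUG1 did not pass (0.12 ± 0.15). GSH1 lost its call without cho2 replicate 2 (-1.12) or WT replicate 2 (-1.08), and DUG2 without any 1 of the 4 libraries (-0.79 to -0.65).

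Uptake and scavenging of sulfur compounds fell in 9 of 11 tested genes, with a median of -1.99. The methionine permease MUP1 went from 1531 and 976 CPM in WT to 391.5 and 232 in cho2 (-2.01 ± 0.33), and did not pass without cho2 replicate 2 (-1.68). MUP3 (-1.41 ± 0.17), the S-methylmethionine permease MMP1 (-2.07 ± 0.26), the SAM permease SAM3 (-1.51 ± 0.23), the cysteine transporter YCT1 (-1.93 ± 0.18) and the amino acid permease AGP3 (-2.27 ± 0.27) fell too. The enzymes that free sulfur from other compounds did the same, the sulfonate dioxygenase JLP1 at -2.02 ± 0.19 and the sulfatase BDS1 at -1.99 ± 0.23. PDC6, a pyruvate decarboxylase poor in sulfur amino acids, went from 1007 and 1293 CPM to 174 and 326 (-2.20 ± 0.24, adjusted p = 0.000136). Its paralogs did not follow, PDC1 standing at 1184 and 1090 CPM in WT against 1199 and 1437 in cho2 (0.21 ± 0.19) and PDC5 at 12.06 and 11.96 CPM against 14.4 and 14.4 (0.27 ± 0.19). The glutathione transporter OPT1 (-0.09 ± 0.20) and the sulfonate transporter SOA1 (-0.57 ± 0.19, adjusted p = 0.208) were not called.

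Among the regulators of these genes 3 of 6 fell, and the activator itself was not one of them. MET4 stood at 123 and 150 CPM in WT and 130 and 121 in cho2 (-0.12 ± 0.14, adjusted p = 0.826), so its libraries overlapped. Of its DNA-binding partners MET32 fell from 276 and 308 CPM to 99.8 and 53.1 (-1.93 ± 0.26), while MET31 (-0.49 ± 0.25, adjusted p = 0.493) and CBF1 (-0.41 ± 0.16, adjusted p = 0.325) did not pass. MET28, a cofactor of Met4 that overlaps YIR017W-A, fell by 1.73 ± 0.26 on the log2 scale. MET30, the subunit that inhibits Met4, went from 458 and 599 CPM to 264 and 199 (-1.19 ± 0.16, adjusted p = 0.000494).

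The cho2 libraries did not fall equally far. Of the 35 sulfur genes that fell, 33 (94.3%) were lower in cho2 replicate 2 than in replicate 1, with a median log2 ratio of -0.50 between them, against 3188 of all 6582 genes (48.4%) and a median of 0.001. The called falls outside the sulfur lists were lower in replicate 2 in 38 of 61 (62.3%), with a median of -0.07. The WT libraries differed in these genes as well, 28 of the 35 being lower in WT replicate 1 than in replicate 2, against 35 of the 61 other falls and 3212 of all 6582 genes. Nothing in the labels separates the libraries of a genotype, and the source of these gaps was not tested.

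**Figure D2:**
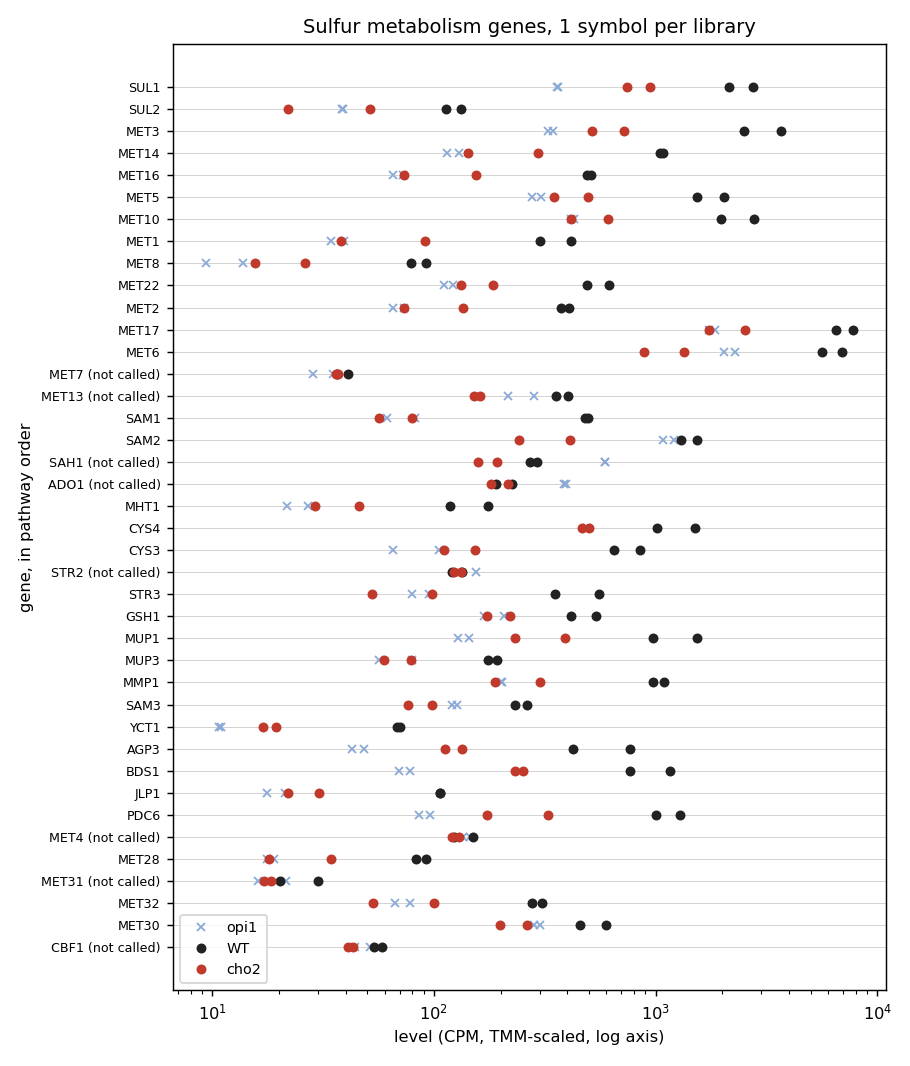
Level (CPM, log axis) of 40 genes of sulfur metabolism in pathway order, with 1 symbol per library for WT (black), cho2 (red) and opi1 (blue crosses). Red points lie to the left of black points for the called genes, while MET4, STR2, ADO1 and MET7 show little or no gap.

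Enzymes that supply serine, glycine and one-carbon units fell in 9 of 16 cases and rose in 0, with a median of -0.70. SHM2, the cytosolic serine hydroxymethyltransferase, stood at 1073 and 844 CPM in WT and at 232 and 285 in cho2 (-1.89 ± 0.16, adjusted p = 1.98e-05), while the mitochondrial form SHM1 stood at 233 and 228 CPM against 252 and 270 (0.18 ± 0.13, adjusted p = 0.645). SER33, which starts serine synthesis, went from 810 and 906 CPM to 289 and 192 (-1.84 ± 0.21), and its paralog SER3 from 182 and 107 CPM to 129 and 147 (-0.07 ± 0.21). The coding sequences of SER33 and SER3 are 82.6% identical. Within each pair only 1 gene was called. The glycine cleavage genes were called throughout, GCV1 at -1.39 ± 0.16, GCV2 at -0.71 ± 0.14 and GCV3 at -0.69 ± 0.15, whereas LPD1, the subunit that this complex shares with others, was not (-0.21 ± 0.13). SER1, the next step of serine synthesis, fell by 0.80 ± 0.12 on the log2 scale. ADE3 (-0.84 ± 0.15) and MTD1 (-0.82 ± 0.17), which interconvert folate one-carbon units, and FOL1 (-0.80 ± 0.18), which makes folate, were called as well. GCV2 lost its call without WT replicate 1 (-0.64) or cho2 replicate 1 (-0.58), ADE3 without cho2 replicate 1 (-0.87) or cho2 replicate 2 (-0.84), and GCV3 without any 1 of the 4 (-0.75 to -0.64). MTD1 kept it only without WT replicate 2 (-1.03) and FOL1 only without WT replicate 1 (-0.99). The counts of the list were 4 without cho2 replicate 1 and 5 without cho2 replicate 2. Together the 16 genes took 0.758% and 0.678% of all counts in WT and 0.385% and 0.388% in cho2.

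Lipid genes moved little by comparison, and the few that passed rose. INO1 (YJL153C, chromosome X, 134332 to 135933), which makes inositol phosphate from glucose phosphate, stood at 230 and 256 CPM in WT and at 730 and 492 in cho2. Both cho2 libraries were above both WT libraries (1.33 ± 0.19, adjusted p = 0.00085). It was the only called gene of the 5 for inositol synthesis and uptake, where the inositol transporter ITR1 stood at 0.37 ± 0.17 (adjusted p = 0.434). Of 6 genes of the CDP-diacylglycerol route, CDS1, which makes CDP-diacylglycerol, rose from 77.6 and 77.1 CPM to 131 and 112 (0.65 ± 0.14, adjusted p = 0.0289), but it passed in no fit that left out 1 of the 4 libraries (0.52 to 0.75). OPI3, which continues the methylation that Cho2 starts, stood at 365 and 421 CPM in WT and 539 and 477 in cho2 (0.37 ± 0.15, adjusted p = 0.36), and CHO1, the phosphatidylserine synthase, at 0.27 ± 0.12 (adjusted p = 0.434). The 8 genes of the Kennedy pathway and choline uptake (median 0.13) and the 11 regulators and phosphatidate enzymes (median 0.02) gave 0 calls in edgeR, INO2 standing highest at 0.46 ± 0.22 (adjusted p = 0.467).

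Fatty acid synthesis and desaturation gave 2 rises of 11, with a median of 0.23. FAS1, the beta subunit of fatty acid synthase, went from 1057 and 882 CPM to 1514 and 1682 (0.72 ± 0.15, adjusted p = 0.0168), and FAA4, an acyl-CoA synthetase, from 534 and 632 CPM to 807 and 915 (0.56 ± 0.13, adjusted p = 0.0438). FAS2, the other synthase subunit, stood at 0.08 ± 0.14 (adjusted p = 0.879). OLE1, the desaturase, had higher values in both cho2 libraries (2165 and 2190 CPM against 3028 and 3343) without passing (0.55 ± 0.15, adjusted p = 0.106), and MGA2, its activator, likewise (0.55 ± 0.14, adjusted p = 0.0802). With 1 of the 4 libraries left out, FAS1 was called only without WT replicate 1 (0.85) and FAA4 only without WT replicate 2 (0.68). FAA4 was not called without the library labelled cho2set2 replicate 1 either (0.56). In DESeq2 5 of the 11 were higher, and 0 were called when WT and cho2 were fitted alone. Sterol synthesis (23 genes), neutral lipid storage (10 genes) and the unfolded protein response (18 genes) gave 0 calls in edgeR, with medians of 0.03, 0.01 and 0.12.

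Of 11 histone genes 3 fell, HTA2, HTB2 and HHF2, which encode core histones, and the list's median was -0.32. HTA2 stood at 238 and 263 CPM in WT and at 104 and 112 in cho2 (-1.22 ± 0.15, adjusted p = 0.00028), and HTB2, its divergent neighbour on chromosome II, at 242 and 261 against 121 and 114 (-1.09 ± 0.14, adjusted p = 0.00042). HHF2 went from 414 and 476 CPM to 202 and 199 (-1.15 ± 0.14, adjusted p = 0.000243). Their paralogs had smaller changes that did not pass, HTA1 -0.17 ± 0.15, HTB1 -0.02 ± 0.14 and HHF1 -0.32 ± 0.14, and HHT2, which lies beside HHF2, stood at -0.49 ± 0.13 (adjusted p = 0.0846). Copies of a pair are 93.7% (HTA1 and HTA2), 87.9% (HTB1 and HTB2) and 97.4% (HHF1 and HHF2) identical, so the split of reads between them is uncertain. The 11 genes took 0.524% and 0.564% of counts in WT and 0.435% and 0.38% in cho2. Histone methylation enzymes (8 genes, median 0.11) and protein phosphatase 2A with its methylation enzymes (10 genes, median 0.04) gave 0 calls in edgeR.

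In the list of amino acid permeases 3 of 15 genes rose and 0 fell, with a median of 0.54. The permeases AGP3, MUP1, MUP3, MMP1 and SAM3, which fell, were counted in the sulfur uptake list instead, so permeases changed in both directions. ALP1, an arginine transporter, stood at 75.6 and 33.1 CPM in WT and at 170 and 299 in cho2 (2.11 ± 0.31, adjusted p = 0.00105). TAT1, a permease for tyrosine and branched-chain amino acids, stood at 37.4 and 13.1 CPM in WT and 56.9 and 159 in cho2 (2.10 ± 0.41, adjusted p = 0.0123) with replicates far apart in both genotypes. GAP1, the general amino acid permease, went from 106 and 87.3 CPM to 152 and 219 (0.94 ± 0.17, adjusted p = 0.00518) and was the single call among 28 genes under nitrogen catabolite repression, which gave 2 calls without cho2 replicate 1, 2 by DESeq2 and 0 when WT and cho2 were fitted alone. ALP1 was called in each fit that left out 1 of the 4 libraries, but its change ranged from 1.62 without WT replicate 2 to 2.81 without WT replicate 1. TAT1 reached 3.02 without WT replicate 1. TAT1 and GAP1 were not called without WT replicate 2 (1.52 and 0.80) or cho2 replicate 2 (1.18 and 0.65). DIP5 (1.35 ± 0.38, adjusted p = 0.114) and GNP1 (1.04 ± 0.28, adjusted p = 0.0873) did not pass. The list's count was 5 without WT replicate 1, 6 without cho2 replicate 1, 1 without WT replicate 2 or cho2 replicate 2, 6 by DESeq2 and 1 when WT and cho2 were fitted alone.

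The remaining rises did not form one pathway of the lists. YDL057W, of unknown function (chromosome IV, 351434 to 352420), stood at 10.5 and 12.9 CPM in WT and at 60.8 and 56.6 in cho2, the largest rise (2.32 ± 0.16, adjusted p = 3.21e-06). This was not particular to cho2, as every other mutant stood above WT too. YDL057W was at 45.6 and 41.4 CPM in set2, 42.7 and 42.5 in cho2set2, 60.8 and 62.5 in opi1, and 39.8 and 48.5 in opi1set2. FAT3, needed for fatty acid uptake, went from 376 and 482 CPM to 849 and 1171 (1.24 ± 0.20, adjusted p = 0.00294), and was not called without cho2 replicate 2 (0.98). Genes of growth on nonfermentable carbon rose in 2 of 28 cases (median 0.07), the acetate transporter ADY2 (2326 and 3014 CPM to 4363 and 5754, 0.92 ± 0.18) and the gluconeogenic enzyme FBP1 (0.61 ± 0.13). That list gave 4 rises by DESeq2, 0 when WT and cho2 were fitted alone, and 0 or 1 without any 1 of the 4 libraries. SDH9, a succinate dehydrogenase isozyme (0.85 ± 0.15), the formate dehydrogenase FDH1 (0.81 ± 0.16), SHC1, an activator of chitin synthase (0.79 ± 0.17), IZH1, a membrane protein of zinc homeostasis that overlaps YDR491C (0.72 ± 0.14), and YOL131W, of unknown function (0.95 ± 0.23), complete the 16. JEN1, the lactate transporter, stood at 0.60 and did not pass (adjusted p = 0.087). Only YDL057W, ALP1 and INO1 of the 16 rises passed in each of the 4 fits that left out 1 library of the pair. The other 13 lost the call in at least 1 of them but kept their direction, ADY2 without WT replicate 1 (0.74) or cho2 replicate 2 (0.70), SDH9 without cho2 replicate 1 (0.68), FDH1 without WT replicate 1 (0.60) or cho2 replicate 1 (0.71), FBP1 (0.53 to 0.69) and YOL131W (0.80 to 1.1) without any 1. SHC1 was called only without cho2 replicate 2 (0.93) and IZH1 only without WT replicate 1 (0.77).

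**Figure D3:**
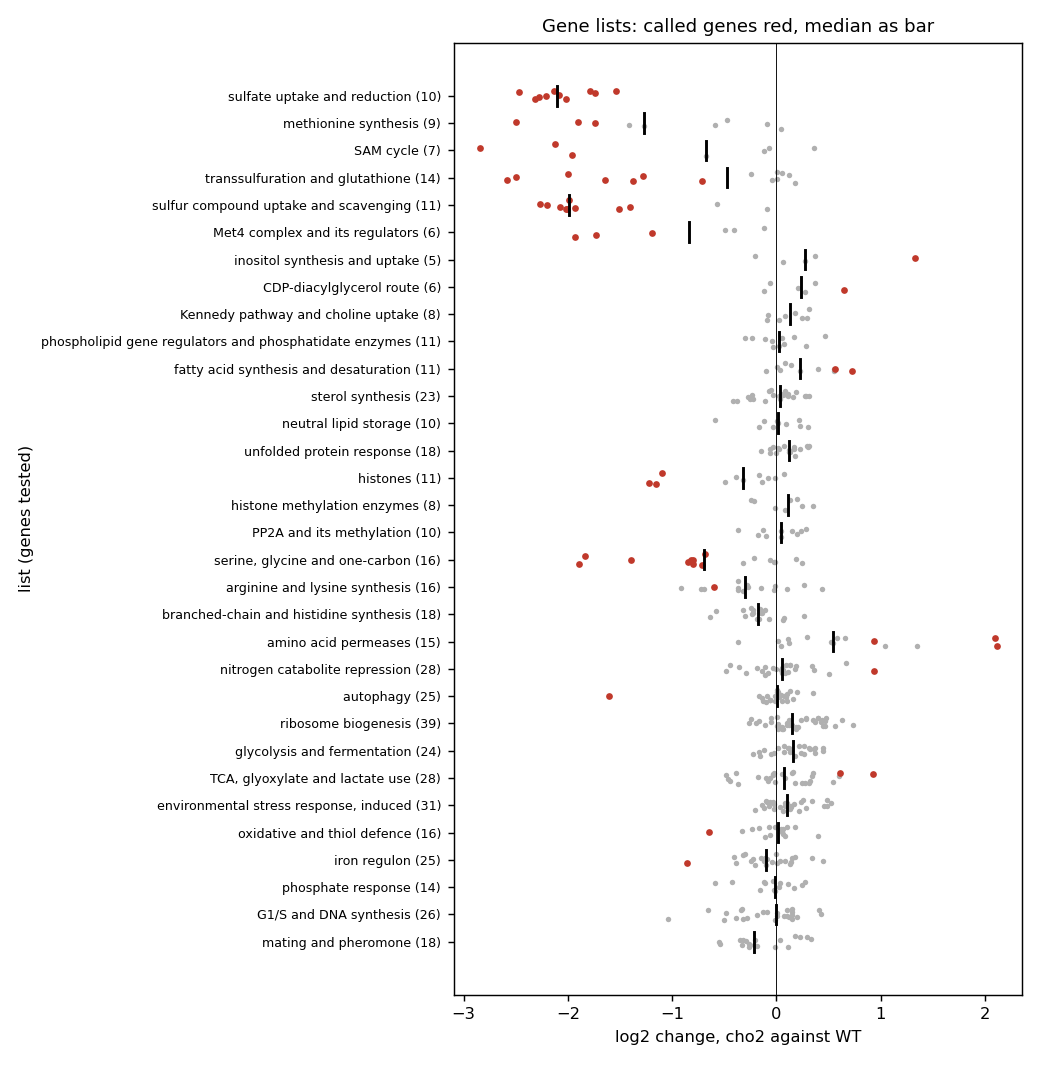
Log2 change of cho2 against WT (horizontal axis) for the tested genes of 32 lists, called genes in red, other genes in grey, and the median of each list as a black bar. The 6 sulfur lists and the serine list have medians between -2.11 and -0.48, the histone list lies at -0.32, the amino acid permeases at 0.54, and the others between -0.30 and 0.28.

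Among other lists, arginine and lysine synthesis gave 1 fall of 16, CPA1 (246 and 201 CPM to 161 and 134, -0.60 ± 0.14, adjusted p = 0.0423), which passed only without WT replicate 2 (-0.75) when 1 of the 4 libraries was left out. That list gave 5 falls without WT replicate 2, 2 falls without cho2set2 replicate 1, 2 falls by DESeq2, 2 rises and 0 falls without WT replicate 1, and 0 calls when WT and cho2 were fitted alone. Branched-chain and histidine synthesis (18 genes, median -0.18), ribosome biogenesis (39 genes, 0.15), glycolysis and fermentation (24 genes, 0.15), the induced environmental stress response (31 genes, 0.11), phosphate response (14 genes, -0.02), G1/S and DNA synthesis (26 genes, -0.01) and mating (18 genes, -0.21) gave 0 calls in edgeR with all libraries. Without WT replicate 2, branched-chain and histidine synthesis gave 1 fall and the stress response 2 rises. Ribosome biogenesis gave 1 rise without WT replicate 1 or without cho2set2 replicate 1. Autophagy gave 1 fall of 25 (ICY2, -1.60 ± 0.18), oxidative and thiol defence 1 of 16 (GRX3, -0.64 ± 0.13) and the iron regulon 1 of 25 (ATX1, -0.86 ± 0.19). GRX3 was called only without WT replicate 2 (-0.77) and ATX1 only without cho2 replicate 1 (-1.14), and ATX1 was not called when WT and cho2 were fitted alone. With all libraries each of these lists held 0 or 1 call, against 1.7% called among all genes.

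Of the 61 falls outside the sulfur lists, 2 were among the 15 largest of all. RAD59 stood at 227 and 273 CPM in WT and at 73.7 and 38.9 in cho2 (-2.15 ± 0.33, adjusted p = 0.00141), and FMO1, a flavin monooxygenase that oxidises thiols, at 137 and 173 against 40.7 and 29.5 (-2.14 ± 0.20, adjusted p = 4.07e-05). The following were chosen after their values were seen. BNA3, an aminotransferase, changed by -1.78 ± 0.25, the mitochondrial transporter ATM1 by -1.39 ± 0.19, and GTO1, a glutathione transferase, by -1.50 ± 0.22. MXR1, which reduces oxidised methionine, changed by -0.83 ± 0.16 and ZWF1, which starts the pentose phosphate pathway, by -0.67 ± 0.14. MXR1 was called only without WT replicate 1 (-0.86), and likewise ZWF1 (-0.81).

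Called genes often lay side by side. Of the 112, 24 (21.4%) had a called gene as their next tested neighbour, against 192 of 6458 genes that were not called (2.97%). They formed 13 pairs, 7 divergent, 5 in tandem and 1 overlapping, and both genes fell in each pair. MHT1 and MMP1 share 342 bases between their starts (-1.96 and -2.07), and YLR179C and SAM1 share 548 bases (-1.32 and -2.85). GTO1 and CYS4 (-1.50 and -1.38), MET32 and CHL4 (-1.93 and -0.88), POP1 and ADE12 (-1.22 and -0.57), HTA2 and HTB2 and AAD6 and AGP3 (-1.20 and -2.27) were the other divergent pairs. VBA2 and SUL1, RMD6 and DLD3, AAD16 and AAD6, YNL277W-A and MET2, and BDS1 and YOL163W lie in tandem. MET2 (117349 to 118809) overlaps YNL276C (118431 to 118826), so reads in their overlap cannot be told apart. The overlap covers most of YNL276C and a smaller part of MET2. CHL4 was not called without cho2 replicate 2 (-0.80), nor AAD6 without that library (-0.97) or WT replicate 2 (-0.71), and ADE12 passed only without WT replicate 2 (-0.63) when 1 library was left out. CYS4 and GTO1 also lie within 3 genes of the deleted CHO2, while PTI1 and MTR3, directly beside CHO2, did not pass (-0.24 ± 0.13 and 0.05 ± 0.15).

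The same deletion was also compared in 4 other libraries, cho2set2 against set2, which were in the same fit and so share its estimate of spread with the comparison above. There 521 of 6582 genes were called (7.92%), 266 higher (4.04%) and 255 lower (3.87%), and 195 without set2 replicate 1 or 190 without cho2set2 replicate 1. Of the 96 falls, 91 were lower there too and 70 of these passed, and 1 was higher and passed, ATX1 (0.69 ± 0.19), which did not pass without set2 replicate 1 (0.51), cho2set2 replicate 1 (0.59) or cho2set2 replicate 2 (0.78). Without the library labelled cho2set2 replicate 1, 91 were lower and 45 passed. All 35 sulfur falls were lower in both cases, with 35 and 26 passing. Their median log2 change was -1.998 with CHO2 loss alone and -1.738 with SET2 deleted. The 35 were selected by their fall with CHO2 loss alone, which favours the first median. The second median includes the library labelled cho2set2 replicate 1. Without that library MET6 went from -1.75 to -1.31, MET3 from -1.57 to -1.08 and YCT1 from -3.05 to -2.80. In the double mutant the sulfur genes again differed between libraries, 34 of 35 (97.1%) being lower in replicate 1 than in replicate 2 (median log2 ratio -0.86), against 51.1% of all genes. SAM1 stood at 687 and 689 CPM in set2 and at 73.5 and 163 in cho2set2 (-2.54 ± 0.29, -2.07 without the doubtful library and -3.23 without cho2set2 replicate 2). SHM2 stood at 1035 and 997 CPM against 298 and 257 (-1.87, and -1.98 without it). Of the 16 rises, 15 were higher and 11 passed, or 7 without that library. INO1 stood at 150 and 164 CPM in set2 and 248 and 212 in cho2set2, which did not pass (0.55 ± 0.19, adjusted p = 0.0942), and its effect in the 2 backgrounds was not shown to differ (-0.78 ± 0.27, adjusted p = 0.221). Without the doubtful library these edgeR values were 0.44 (adjusted p = 0.477) and -0.90 (adjusted p = 0.434).

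A test of the difference between the 2 effects called 60 genes of 6582 (0.912%), 8 of them among the 112. HTA2 and HHF2, which fell with CHO2 loss alone, changed by 0.40 ± 0.15 and 0.33 ± 0.14 with SET2 deleted. Neither of these changes passed in edgeR (adjusted p = 0.127 and 0.174). The differences were 1.62 ± 0.21 and 1.48 ± 0.20 (adjusted p = 0.00215 for each). Both genes were already lower in set2 than in WT, HTA2 at 138 and 163 CPM against 238 and 263, and HHF2 at 249.5 and 304 against 414 and 476. HTB2 differed by 0.98 ± 0.20 (adjusted p = 0.0343). With all libraries, 4 of the 11 histone genes were called higher in cho2set2 than in set2, against 4.04% of all genes. The difference passed for 5 of the 11. YDL057W stood at 45.6 and 41.4 CPM in set2, already above WT (10.5 and 12.9), and at 42.7 and 42.5 in cho2set2. Its rise with CHO2 loss alone thus had no counterpart there (difference -2.35 ± 0.22, adjusted p = 0.000146). FDH1 stood at 1013 and 1372 CPM in WT and at 2234 and 1963 in cho2. In set2 it started lower, at 176 and 179 CPM, and stood at 1656 and 1543 in cho2set2. That was a larger rise than with CHO2 loss alone (difference 2.36 ± 0.23, adjusted p = 0.000146), though the level in cho2set2 was below that in cho2. CPA1 went from 246 and 201 CPM in WT to 161 and 134 in cho2. It fell further with SET2 deleted, from a higher start of 468 and 422 CPM to 128 and 112 (difference -1.29 ± 0.20, adjusted p = 0.00593). CPA1 was not alone in its list. With all libraries, 16 of the 16 arginine and lysine synthesis genes were lower in cho2set2 than in set2, against 3.87% of all genes. The difference passed for 12 of them. ATX1 and GRX8 differed by 1.55 ± 0.27 (adjusted p = 0.0118) and 1.13 ± 0.24 (adjusted p = 0.0393). YDL057W, FDH1, HTA2 and HHF2 passed in each of the 8 fits that left out 1 library of the 4 genotypes, with differences of -2.51 to -2.21, 2.12 to 2.56, 1.504 to 1.74 and 1.34 to 1.63. CPA1 failed in 1 of the 8, without set2 replicate 1 (-1.21). HTB2 passed only without WT replicate 1, and lost its call in the other 7 fits (0.90 to 1.06). ATX1 did not pass without WT replicate 2 (1.505), set2 replicate 1 (1.36), cho2 replicate 2 (1.32) or cho2set2 replicate 1 (1.45). GRX8 passed only without WT replicate 1 or set2 replicate 2, and otherwise lay between 0.90 and 1.21. The 60 became 14 without that library, 9 without set2 replicate 1, 22 without cho2 replicate 1, 25 without cho2 replicate 2, 25 without WT replicate 2 and 107 without WT replicate 1.

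**Figure D4:**
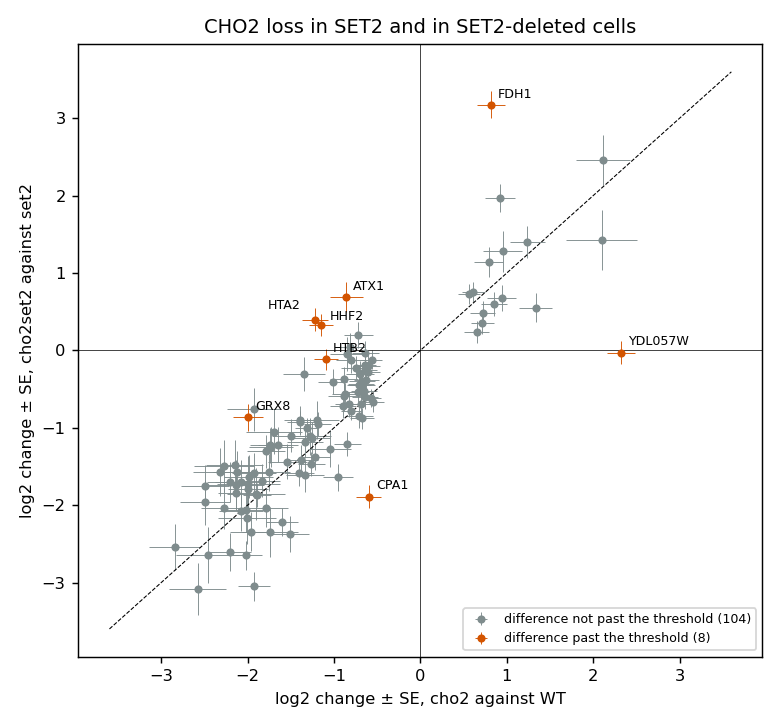
Log2 change ± SE of the 112 called genes with CHO2 loss alone (horizontal axis) and with SET2 deleted (vertical axis), the dashed line marking equal change. Orange marks the 8 genes whose difference passed the test, of which HTA2, HHF2, HTB2, ATX1 and GRX8 lie above the line, YDL057W and CPA1 below it, and FDH1 far above it.

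Set directly against opi1, the mutant of the phospholipid repressor, cho2 differed in 579 of 6581 genes (8.8%), 298 of them higher (4.53%) and 281 lower (4.27%) in cho2. Of the 96 falls 71 did not pass this test, 7 were lower in cho2 than in opi1 and 18 were higher. Among the 35 sulfur falls these counts were 26, 2 and 7. The 57 genes of the sulfur lists took 1.3% and 1.23% of all counts in opi1 and 1.52% and 1.14% in cho2. In WT they took 4.05% and 4.69%, so their low level was not particular to CHO2 loss. SAM1 was at 82.3 and 61.3 CPM in opi1, next to 79.4 and 56.4 in cho2 (log2 difference -0.08 ± 0.29, adjusted p = 0.909). SAM2 was at 1214 and 1074 CPM in opi1 against 409 and 243 in cho2, lower in both cho2 libraries (-1.81 ± 0.28, adjusted p = 0.000854). The other genes lower in cho2 than in opi1 were MET6 (2289 and 2035 CPM in opi1, -0.96 ± 0.27), GCV1 (-1.05 ± 0.16), GCV3 (-0.60 ± 0.15), MXR1, GEX2 and DIA1. Those that were higher in cho2 than in opi1 included SUL1 (363 and 360 CPM in opi1, 1.22 ± 0.23), MUP1 (144 and 128 CPM, 1.20 ± 0.33), PDC6 (96.1 and 86.0 CPM, 1.46 ± 0.24), AGP3 (1.43 ± 0.27) and HTA2 (46.4 and 44.0 CPM, 1.25 ± 0.16). With 1 library of the 4 left out, MET6 passed only without cho2 replicate 1 (-1.29), MUP1 only without cho2 replicate 2 (1.53), and GCV3 in no fit (-0.65 to -0.54). SUL1 (1.22) and AGP3 (1.35) did not pass without opi1 replicate 2, and PDC6 passed throughout (0.94 to 1.84).

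Of the 16 rises, 4 were lower in cho2 than in opi1 (INO1, CDS1, ADY2 and FDH1) and 3 higher (TAT1, IZH1 and SDH9). INO1 was at 16270 and 15780 CPM in opi1 against 730 and 492 in cho2 (-4.71 ± 0.22, adjusted p = 5.57e-09), and CDS1 at 390 and 421 CPM against 131 and 112 (-1.74 ± 0.14). OPI3 (1667 and 1636 CPM in opi1, -1.70 ± 0.15) and CHO1 (1343 and 1496 CPM, -2.28 ± 0.13), not called against WT in cho2, were lower in cho2 than in opi1 too. TAT1 was at 16.7 and 16.9 CPM in opi1 (2.68 ± 0.44, adjusted p = 0.00133, and 1.77 without cho2 replicate 2). The 579 calls became 165 without opi1 replicate 2, 335 without opi1 replicate 1, 214 without cho2 replicate 1 and 353 without cho2 replicate 2.

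**Figure D5:**
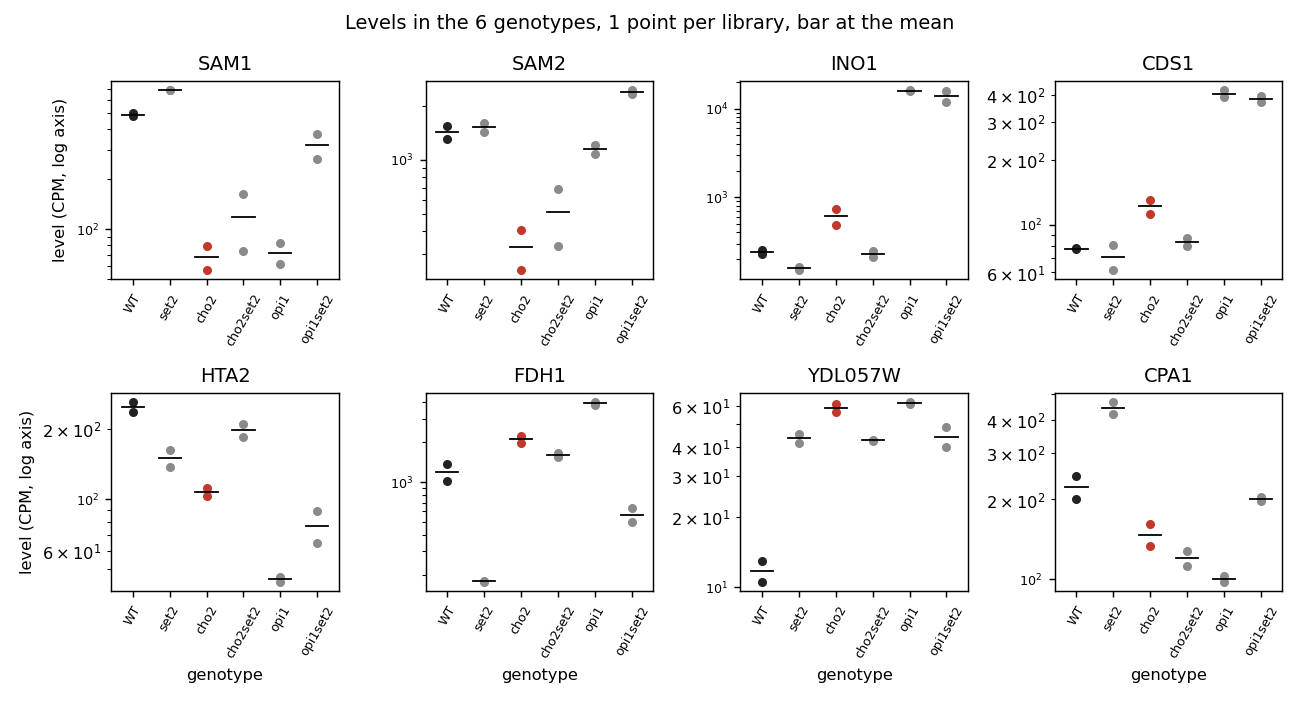
Levels (CPM, log axis) of 8 genes in the 6 genotypes, with 1 point per library, WT in black, cho2 in red and a bar at the mean. SAM1 stood at 82.3 and 61.3 CPM in opi1 while SAM2 stood at 1214 and 1074 CPM there, and INO1 in cho2 lay between WT and opi1.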

How the data were processed

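Gene counts of 12 RNA-seq libraries were used, 2 for each of 6 genotypes given by the labels. Per the labels' protocols, RNA was taken with a MasterPure Yeast RNA kit and 1 table was deposited with whole-number counts per gene, not normalised or pooled, beside FPKM computed by the authors and the exonic gene length in bases, another deposited value. Cutadapt 1.9.1, HISAT2 2.0.1, HTSeq 0.6.1 and build sacCer3 are named in the submitters' processing notes. Their settings, the strand setting included, are not given in the sources used here, so reads where genes overlap cannot be told apart.

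Genes reaching 1 FPKM in 2 or more libraries were kept, and their counts were fitted over all 12 libraries in edgeR 4.0.16 (TMM factors 0.897 to 1.077, quasi-likelihood test, 6 residual degrees of freedom, 2-sided), with Benjamini-Hochberg adjustment over all genes tested and 0.05 as the threshold. OPI1 was left out of the comparison with opi1. The SE is the log2 change over the square root of F. Of genes in the table without a symbol, 240 were named from the RefSeq annotation of R64, where 99.1% of 6048 matched genes had the coordinates of the table. The members, lists and comparisons were chosen with earlier results of these data known. Named genes were CHO2, the 15 largest rises and falls whose groups stood apart and whose higher group averaged 5 FPKM or more, called list members, and up to 4 members per list that did not pass. Alternatives were median-of-ratios scaling, no filter on low values, DESeq2 1.42.0 and a replicate block. For cho2 against WT the 4 libraries of the pair were also fitted alone. In each comparison its own libraries, and cho2set2 replicate 1, were left out 1 at a time. The opi1set2 libraries were never left out. The replicate numbers were checked for pairing: the differences between replicates correlated from -0.329 to 0.329 over 15 pairs of genotypes, so the numbers were not taken to pair libraries. Replicates of the same genotype were checked for duplicates and none was found. Libraries of different genotypes were not compared for this. In simulated data for cho2 against WT (6582 genes), 68% of 200 changed genes were recovered, with 31.3%, 80.6% and 92.4% at 1.5-, 2- and 4-fold, and 10 of 146 calls were false. R 4.3.3 and Python 3.11.15 were used.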

Additional observations from a re-analysis of the deposited data

Results flagged for a closer look

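The effect of CHO2 loss differed between SET2-deleted cells and cells with SET2 in 8 of the 112 called genes, by a test of the difference itself (edgeR's quasi-likelihood test, Benjamini-Hochberg adjusted). On the log2 scale, SET2-deleted minus SET2, the differences were -2.35 for YDL057W, 2.36 for FDH1, 1.62 for HTA2, 1.48 for HHF2, 0.98 for HTB2, -1.29 for CPA1, 1.55 for ATX1 and 1.13 for GRX8. Those of HTB2, ATX1 and GRX8 did not pass without the library labelled cho2set2 replicate 1 (1.05, 1.45 and 1.21), and that of CPA1 did not pass without set2 replicate 1 (-1.21). The causes were not tested.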

How the results depend on the processing

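With 2 libraries a genotype, 1 library can decide a call. In cho2 against WT, 53 of the 112 genes, and 30 of the 35 sulfur genes, kept their call under all 10 alternatives, and 0 reversed. The count was 183 by DESeq2, which included all 112, and 64 (without cho2 replicate 2) to 118 (without cho2set2 replicate 1) when a library was left out. It was 104 with a replicate block, though the numbers do not pair libraries, and 90 when WT and cho2 were fitted alone, which lost 28 of the 112. For cho2set2 against set2 the count of 521 ranged from 190 (without cho2set2 replicate 1) to 522. The difference of the effects gave 60 calls, 133 by DESeq2 and 9 (without set2 replicate 1) to 107 (without WT replicate 1). The 579 calls of cho2 against opi1 ranged from 165 to 601. The cause of each was not tested. In simulated data, changes under 2-fold are often missed at this depth and number of libraries.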

Other observations

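Several of the falls lie near chromosome ends. Of the 96 genes that fell, 18 (18.8%) lay within 30 kb of an end of their chromosome in build R64, against 366 of 6570 nuclear genes tested (5.57%) and 1 of 16 rises (FDH1; 6.25%). The distance was chosen after the positions were seen, and no test was made. Of the 18, 8 were not called without cho2 replicate 2, FDC1, VBA2, YIR042C, AAD16, AAD6, GEX2, DIA1 and YOL163W. Among the 51 falls that passed without that library, 10 lay in this zone (19.6%). Among the 9 falls of the uptake and scavenging list 6 were in this zone, AGP3 (17.0 kb from the end of chromosome VI), MUP3 (26.2 kb, VIII), MMP1 (18.0 kb, XII), JLP1 (25.8 kb, XII), BDS1 (6.2 kb, XV) and SAM3 (22.9 kb, XVI). YCT1, at 30109 on chromosome XII, lay just outside it. SUL1, the sulfate permease, lay 21.4 kb from the end of chromosome II, and MHT1 16.6 kb from that of chromosome XII beside MMP1.

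The other falls in this zone were RMD6 and DLD3 on chromosome V, AAD16 and AAD6 on VI, VBA2 on II, FDC1 on IV, YIR042C on IX, GEX2 on XI, DIA1 on XIII and YOL163W on XV. RMD6 stood at 66.6 and 73.2 CPM in WT and at 27.0 and 14.3 in cho2 (log2 change -1.75 ± 0.25, SE, n = 2 and 2). DLD3, a lactate dehydrogenase isozyme, went from 320 and 402 CPM to 143 and 159 (-1.26 ± 0.16), with both cho2 libraries below both WT libraries. GEX2 lay closest to an end, 3.5 kb away on chromosome XI, and stood at -0.84 ± 0.20, a call that held only without WT replicate 1 (-1.03) when 1 library was left out.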
